A study of Homo sapiens with 4 samples.

Results

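The genes described here carry the symbols of the translation initiation factors eIF1 to eIF6 and the translation elongation factors eEF1 and eEF2. They were taken by symbol from the table of transcript levels, as every EIF1 to EIF6 or EEF1 and EEF2 symbol that is not a kinase, an eIF4E-binding protein, EEF1E1 or a symbol holding KMT, which marks most of the eEF methyltransferases. This gave 55 of the 16057 genes in the table. The cells were MM.1S, an established human multiple myeloma line, in 2 groups of 2 libraries described as biological duplicates. The treated group received JG342, an allosteric inhibitor of the HSP70 chaperones, at 350 nM. The control group received the solvent DMSO, and both were collected after 26 h. All 8 plasma cell or myeloma markers examined, among them SDC1, IRF4 and MZB1, were present, with gene means from 26.2 to 1490 TPM. Summed, these markers reached 4187 to 4936 TPM per library. Markers of other cell types summed to at most 16.4 TPM for B cells, 14.6 for T cells, 46.2 for monocytes, nearly all of it LYZ, 11.4 for erythroid cells and 0.22 for stroma in any library. TPM is a read share corrected for transcript length and scaled to a fixed library total, so levels of different genes can be compared.

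Translation begins when eIF2 carries the initiator tRNA to the small ribosomal subunit, while eIF1, eIF1A and eIF3 keep that subunit open for scanning. The eIF4 factors recognise the cap of the mRNA and unwind its leader, eIF5 and eIF5B complete the joining of the large subunit, and eEF1 and eEF2 then lengthen the chain. eIF2B recharges eIF2 with GTP, and kinases of the integrated stress response block that step by phosphorylating the alpha subunit of eIF2. Many mRNAs for elongation factors and ribosomal proteins begin with a C followed by an unbroken run of pyrimidines, the terminal oligopyrimidine or TOP motif, through which growth signals set their translation.

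The first bases of these transcripts are shown because genes with and without such a start are compared after the factor groups. The starts come from RefSeq on GRCh38.p14, 5′ to 3′, with the leading C and its pyrimidine run in capitals where at least 4 pyrimidines follow the C.
EEF2: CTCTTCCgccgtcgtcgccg (chr19:3985444-3985463, minus strand)
EEF1A1: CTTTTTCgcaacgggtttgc (chr6:73521013-73521032, minus strand)
EEF1B2: CCTTTTTCCTCTCTTCagcg (chr2:206159895-206159914, plus strand, the downstream of 2 listed starts)
EIF3F: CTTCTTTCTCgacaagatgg (chr11:7987337-7987356, plus strand)
EIF4A2: CTTTTCagtcgggcgctgag (chr3:186783577-186783596, plus strand)
EIF4B: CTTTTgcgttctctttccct (chr12:53006456-53006475, plus strand)
EIF1: gccccagtcactgagccgcc (chr17:41688885-41688904, plus strand)
EIF4A3: acagcgaggtcggcagcggc (chr17:80147109-80147128, minus strand)
EIF5B: acaccatatgtgtcctgttc (chr2:99337389-99337408, plus strand)

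Of the 55 genes, 53 had a mean of at least 1 TPM and were fitted. EEF1A2, the muscle and nerve form of eEF1A, and EIF1AY were below that level. Differences were tested with limma on log2(TPM + 1) over all 12042 fitted genes, with Benjamini-Hochberg adjustment and a threshold of 0.05. After JG342, 7 factor genes were higher and 5 were lower. Across all fitted genes 10.8% were called higher and 7.62% lower, 18.4% in all, against 13.2%, 9.43% and 22.6% of the factor genes, so the counts for the group were near the background. Their median log2 fold change was 0.01, beside 0.03 for all fitted genes, and 28 of 53 were positive, beside 6446 of 12042. In 36 of the 53 the libraries of the groups did not overlap, with 18 higher and 18 lower (67.9%, against 62.1% of all fitted genes, of which 34.0% were higher and 28.2% lower). All 12 called genes kept their direction in both same-numbered pairs of libraries, which had to be so, since their groups did not overlap. The median of the factor genes was 0.02 in the pair numbered 1 and -0.01 (-0.0087) in the pair numbered 2. The genes were thus spread to both sides of 0, as the plot of fold changes by factor group shows.

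**Figure D1:**
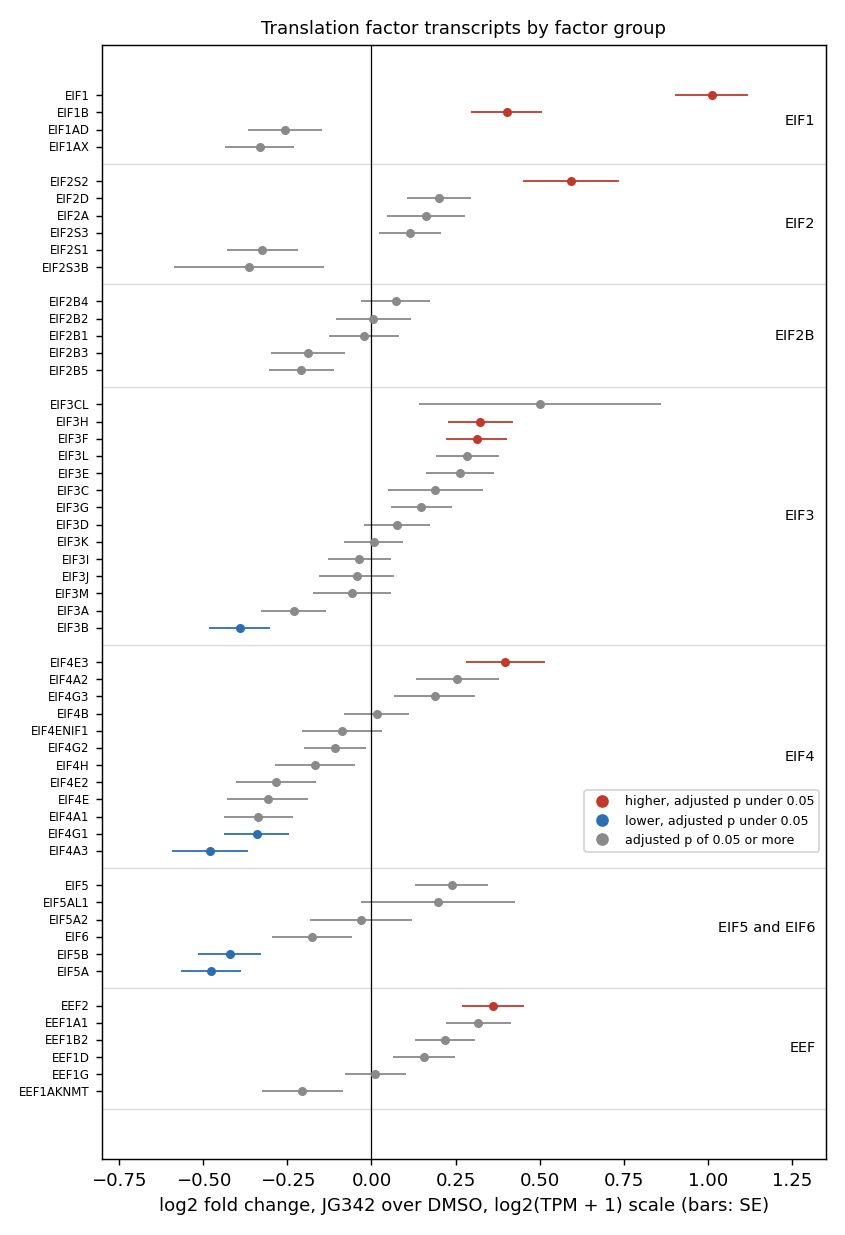
Log2 fold change of JG342 over DMSO for the 53 fitted factor genes, on the log2(TPM + 1) scale, with SE bars, grouped by factor number and coloured by the limma call. EIF1 at 1.01 lies apart from every other factor gene; the lowest are EIF4A3 at -0.48 and EIF5A at -0.48.

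The higher calls were sensitive to scaling. With each library scaled to an equal median, 1 factor gene was higher and 8 were lower (background 18.0% in all, 8.02% higher and 9.97% lower), so higher genes made up 11.1% of the calls in place of 58.3%; the median of all fitted genes moved from 0.03 to -0.03. With the replicate number as a block, 13 were higher and 11 lower, the 12 among them (background 34.9% in all, 19.2% higher and 15.7% lower). Here and below, p-values with the block alone rest on the mean-variance trend, not on a gene's own spread. With the block and median scaling, 5 were higher and 15 lower (background 33.1% in all, 13.9% higher and 19.2% lower). Of the genes gained with the block alone, EEF1A1, EEF1B2, EIF3CL, EIF3E, EIF3L and EIF4A2 then missed. EIF1AX, EIF2S1, EIF3A, EIF4A1, EIF4E and EIF4E2 passed. EIF1AD, EIF2B3, EIF2B5 and EIF6, not called with the block alone, also passed, all as lower. EIF1 passed when any 1 of the 4 libraries was left out (limma adjusted p 0.000577 to 0.00812). EIF2S2 missed without DMSO replicate 1 (0.127) or JG342 replicate 2 (0.0583), and EIF5A without DMSO replicate 1 (0.0574) or DMSO replicate 2 (0.0868). EIF5B and EIF4A3 passed only without JG342 replicate 2 (0.0265 and 0.00797), and otherwise ranged from 0.0612 to 0.134. EEF2, EIF1B, EIF3B, EIF3F, EIF3H, EIF4E3 and EIF4G1 missed the threshold whichever of the DMSO or JG342 libraries was left out, with limma adjusted p from 0.0505 (EIF3H without JG342 replicate 1) to 0.267 (EIF4G1 without DMSO replicate 2). None of the 12 changed sign in these fits. With 1 library left out this had to be so, since their groups did not overlap. The block alone leaves the log2 fold changes as they were, and block with median scaling repeats those of median scaling.

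Summed over the 55 genes, factor transcripts made up 2.18% and 2.25% of the TPM total in DMSO replicates 1 and 2, and 2.44% in both JG342 libraries. Most of this was elongation factor mRNA, which summed to 11223 and 11304 TPM with DMSO and 13627 and 13269 TPM with JG342. The eIF4 genes summed to 3364 and 3543 TPM with DMSO and 3207 and 3114 TPM with JG342. Those of eIF5 and eIF6 summed to 1992 and 2082 TPM with DMSO and 1488 and 1568 TPM with JG342. In bulk RNA, such sums cannot tell fewer cells of a kind from less RNA per cell.

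Among the genes with EIF1 symbols, EIF1 and EIF1B rose (50% of the 4 fitted, against 10.8% of all fitted genes). EIF1AX and EIF1AD were not called. EIF1 (NM_005801) encodes eIF1, which guards the accuracy of start codon choice. It stood at 445 and 521 TPM with DMSO and at 916 and 1030 TPM with JG342. Both treated libraries lay far above both controls, and the fold was 2.01 on the TPM scale. The log2 fold change of 1.01 ± 0.11 (SE, n = 2 per group; limma adjusted p 0.000755) was reached or passed by 275 of the 12042 fitted genes, EIF1 included. EIF1 passed under all 13 alternative settings tried. EIF1B (NM_005875), a close relative of EIF1, was present at 35.8 and 36.9 TPM with DMSO and at 47.7 and 48.9 TPM with JG342. The groups did not overlap, and it rose by 0.40 ± 0.11 (limma adjusted p 0.0303). After median scaling its limma adjusted p was 0.0539.

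EIF1AX encodes eIF1A, the partner of eIF1 in scanning, and its values were 84.1 and 92.8 TPM with DMSO and 71.6 and 68.3 TPM with JG342. It lay lower in both treated libraries without passing (log2 fold change -0.33 ± 0.10, limma adjusted p 0.0537; 0.00320 in the blocked fit and 0.0281 after median scaling). EIF1AD had a log2 fold change of -0.26 ± 0.11 (limma adjusted p 0.134, and 0.0200 with the block and median scaling). The ratio of EIF1 to EIF1AX within a library, which scaling does not touch, was 5.29 and 5.62 with DMSO and 12.8 and 15.1 with JG342. This ratio and those below were chosen after their values were seen. All but EIF4A2 to EIF4A1 divide a gene higher without overlap by a gene lower without overlap. In those ratios the groups therefore had to separate.

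**Figure D2:**
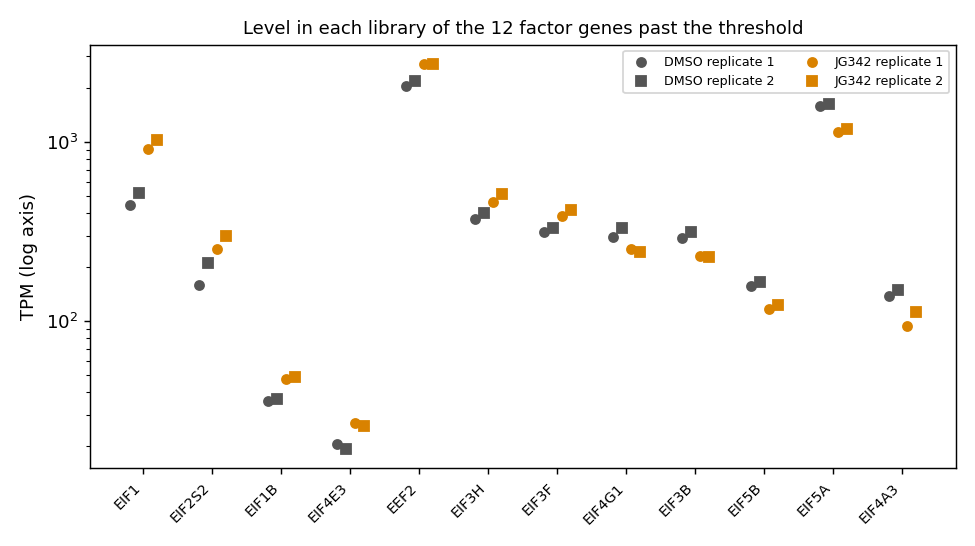
TPM on a log axis in each of the 4 libraries for the 12 factor genes past the threshold, ordered by fold change; grey marks DMSO, orange JG342, circles replicate 1 and squares replicate 2. Treated and control libraries do not overlap for any of the 12 genes, which were picked by the test. The same held for 62.1% of all fitted genes. EIF1 at 445 and 521 against 916 and 1030 TPM shows the widest gap.

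The 3 subunit genes of eIF2 did not move together. EIF2S2 (NM_001316363), the beta subunit, was at 158 and 210 TPM with DMSO and at 254 and 299.6 TPM with JG342. The groups did not overlap, although the SD was 36.3 TPM with DMSO and 32.5 TPM with JG342. EIF2S2 rose by 0.59 ± 0.14 (limma adjusted p 0.0213; 0.0569 after median scaling). EIF2S2 has 2 pseudogene copies of at least 95% identity that could share reads. EIF2S1, the alpha subunit that stress kinases phosphorylate, was at 44.4 and 46.4 TPM with DMSO and at 35.7 and 36.3 TPM with JG342. It was lower in both treated libraries but did not pass (-0.32 ± 0.11, limma adjusted p 0.0649), while with the replicate block the value was 0.0131 and after median scaling 0.0346. EIF2S3, the gamma subunit, was at 188 and 203 TPM with DMSO and at 214 and 210 TPM with JG342, and it was not called (0.11 ± 0.09, limma adjusted p 0.418). Its near-identical copy EIF2S3B had means of 1.82 and 1.17 TPM.

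The beta to alpha ratio was 3.57 and 4.52 with DMSO and 7.09 and 8.25 with JG342. The gamma to alpha ratio was 4.24 and 4.38 with DMSO and 5.98 and 5.77 with JG342. In both ratios the treated libraries lay above the controls, which had to be so. EIF2S2 and EIF2S3 were higher without overlap, and EIF2S1 was lower without overlap. EIF2A and EIF2D, which can bring tRNA to the ribosome without eIF2, had log2 fold changes of 0.16 ± 0.12 and 0.20 ± 0.09 and did not pass (limma adjusted p 0.368 and 0.175).

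None of the 5 eIF2B subunit genes passed the threshold in either direction in the fit without block or scaling. Their log2 fold changes ran from -0.21 for EIF2B5, the catalytic epsilon subunit, to 0.07 for EIF2B4, with a median of -0.02. EIF2B5 was at 77.4 and 78.3 TPM with DMSO and at 67.1 and 67.4 TPM with JG342, so its groups did not overlap, and it had the smallest p of the 5 (limma adjusted p 0.167). EIF2B1, EIF2B2, EIF2B3 and EIF2B4 had mean levels between 34.7 and 62.5 TPM in both groups. With the block and median scaling together, EIF2B3 and EIF2B5 passed as lower (limma adjusted p 0.0457 and 0.0285).

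**Figure D3:**
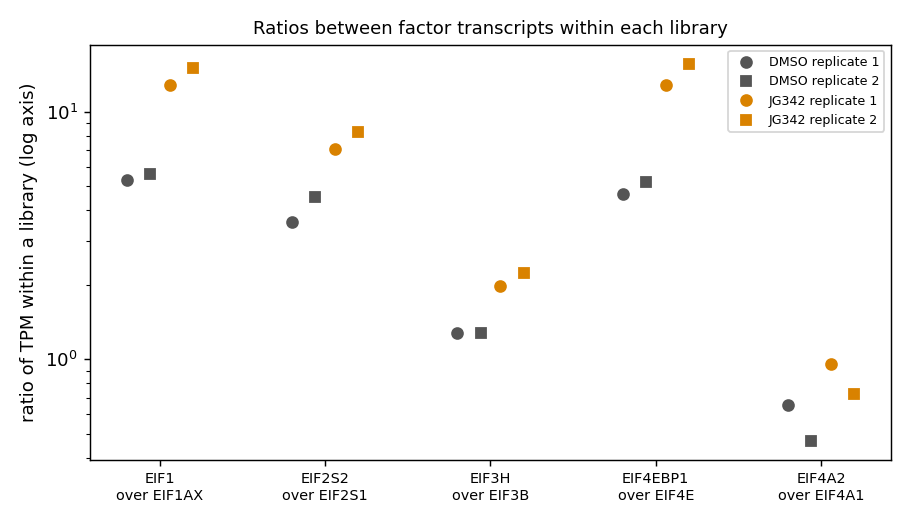
Ratio of TPM between pairs of transcripts within each library, on a log axis; grey marks DMSO, orange JG342, circles replicate 1 and squares replicate 2. The EIF1 to EIF1AX ratio goes from 5.29 and 5.62 to 12.8 and 15.1, and the EIF2S2 to EIF2S1 ratio from 3.57 and 4.52 to 7.09 and 8.25.

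Of the eIF3 genes, 2 were higher (14.3%), 1 lower (7.14%) and 11 not called, near the 10.8% and 7.62% of all fitted genes. Their median log2 fold change was 0.11. eIF3 is the large scaffold that holds the other initiation factors on the small subunit. EIF3H (NM_003756) was at 371 and 402 TPM with DMSO and at 460 and 509 TPM with JG342. EIF3F (NM_003754) was at 316 and 333 TPM with DMSO and at 387 and 419 TPM with JG342. Both encode subunits with an MPN domain, their groups did not overlap, and they rose by 0.32 ± 0.10 and 0.31 ± 0.09 (limma adjusted p 0.0477 and 0.0460). Neither passed after median scaling (0.130 and 0.123). EIF3E and EIF3L, both further subunit genes, lay higher in both treated libraries, at 0.26 ± 0.10 and 0.28 ± 0.09 (limma adjusted p 0.104 and 0.0668; 0.00636 and 0.00225 with the replicate block).

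EIF3B (NM_001037283), a core subunit that contacts the scanning machinery, fell. It was at 292 and 313 TPM with DMSO and at 232 and 229 TPM with JG342, with no overlap and a change of -0.39 ± 0.09 on the log2 scale (limma adjusted p 0.0190; 0.0163 after median scaling). EIF3A, the largest subunit, was at 178 and 196 TPM with DMSO and at 156 and 161 TPM with JG342. At -0.23 ± 0.10 on the log2 scale it was not called (limma adjusted p 0.126; 0.0250 in the blocked fit). The ratio of EIF3H to EIF3B was 1.27 and 1.28 with DMSO and 1.98 and 2.23 with JG342, a gap far wider than that between the libraries of a group.

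EIF3F has a near-identical pseudogene, so part of its reads may come from there. The remaining eIF3 genes, EIF3D, EIF3G, EIF3I, EIF3J, EIF3K and EIF3M, had log2 fold changes from -0.06 to 0.15 and limma adjusted p from 0.290 to 0.967. EIF3C and EIF3CL need care, since their transcripts are 99.9% identical over 98.2% of EIF3C. EIF3CL was at 55.2 and 123 TPM with DMSO and at 161 and 85.1 TPM with JG342, so libraries of a group differed as much as the groups. It was not called (limma adjusted p 0.366), although the blocked fit gave 1.2e-06 from pairs at 1.53 and -0.53. Summed, the copies stood at 385 and 432 TPM with DMSO and at 471 and 513 TPM with JG342, or 0.27 ± 0.10 on the log2 scale (limma adjusted p 0.0912).

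The cap-binding and unwinding genes of eIF4 lay mostly below 0, with a median of -0.14. Negative values were found in 8 of 12 (and EIF4B also, after median scaling), beside 5596 of 12042 fitted genes. Past the threshold 1 was higher (8.33%) and 2 lower (16.7%), against 10.8% and 7.62% of all fitted genes. EIF4G1 (NM_001194946), the scaffold that joins the cap-binding protein to the helicase, was at 296 and 332 TPM with DMSO and at 252 and 243 TPM with JG342. The groups did not overlap, and EIF4G1 fell by 0.34 on the log2 scale, with an SE of 0.10 (limma adjusted p 0.0399; 0.0259 after median scaling). EIF4G2, which supports translation without cap binding, was at 611 and 627 TPM with DMSO and at 601 and 547 TPM with JG342 (-0.11 ± 0.09, limma adjusted p 0.440). EIF4G3 was the lowest of the 3 scaffolds, at 18.5 and 19.4 TPM with DMSO and at 22.0 and 21.5 TPM with JG342 (0.19 ± 0.12, limma adjusted p 0.309).

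The helicase genes differed in direction. EIF4A1, the main helicase of initiation, was at 1012 and 1151 TPM with DMSO and at 812 and 900.2 TPM with JG342. It was lower in both treated libraries but just missed the threshold (-0.34 ± 0.10, limma adjusted p 0.0526; 5.75e-05 with the replicate block, 0.0511 after median scaling). EIF4A2, its close relative, was at 660 and 539 TPM with DMSO and at 774 and 655 TPM with JG342, with overlapping groups (0.26 ± 0.12, limma adjusted p 0.183; 0.00373 with the block). The EIF4A2 to EIF4A1 ratio was 0.652 and 0.469 with DMSO and 0.954 and 0.728 with JG342. EIF4A3 (NM_014740), a helicase of the exon junction complex, was at 138 and 149 TPM with DMSO and at 93.7 and 112 TPM with JG342. Its groups did not overlap and it fell by 0.48, with an SE of 0.11 (limma adjusted p 0.0204; 0.0276 after median scaling).

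Of the cap-binding proteins, EIF4E was at 29.2 and 32.5 TPM with DMSO and at 25.6 and 23.8 TPM with JG342. EIF4E2, a repressive relative, was at 50.03 and 58.1 TPM with DMSO and at 41.9 and 46.4 TPM with JG342. Both lay lower in the treated libraries and did not pass (-0.31 ± 0.12 and -0.28 ± 0.12, limma adjusted p 0.107 and 0.130; 0.0336 and 0.0259 with the replicate block, and 0.0489 and 0.0797 after median scaling). EIF4E3 (NM_001134649), another cap-binding form, went the other way, from 20.5 and 19.3 TPM with DMSO to 27.0 and 26.0 TPM with JG342. It rose by 0.40 ± 0.12 (limma adjusted p 0.0474; 0.0734 after median scaling). EIF4B and EIF4H, which stimulate the helicase, and EIF4ENIF1, which carries eIF4E into the nucleus and P-bodies, had log2 fold changes of 0.02, -0.17 and -0.09 and did not pass (limma adjusted p 0.928, 0.363 and 0.652).

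Of the 6 genes of eIF5 and eIF6, 2 were called lower (33.3%) and 0 higher, against 7.62% and 10.8% of all fitted genes. Their median log2 fold change was -0.10, with 2 positive and 4 negative. EIF5A (NM_001143760) encodes the hypusine-bearing factor that helps ribosomes through difficult peptide bonds, and it is the most abundant initiation-named transcript of the set. It was at 1589 and 1634 TPM with DMSO and at 1133 and 1183 TPM with JG342. The groups were well apart, with a fold of 0.718 and a log2 fold change of -0.48 ± 0.09 (limma adjusted p 0.00844; 0.0150 after median scaling). The copy EIF5AL1 shares 97.6% identity over 90.0% of EIF5A, but at means of 2.13 and 2.64 TPM it was far lower. EIF5A2 was at 7.96 and 7.68 TPM with DMSO and at 7.17 and 8.13 TPM with JG342, with overlapping groups (limma adjusted p 0.912).

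EIF5B (NM_015904), the GTPase that joins the ribosomal subunits, was at 157 and 164 TPM with DMSO and at 117 and 123 TPM with JG342. It fell without overlap, at -0.42 ± 0.09 (limma adjusted p 0.0161; 0.0167 after median scaling). EIF5, which triggers GTP hydrolysis on eIF2, was at 49.8 and 53.7 TPM with DMSO and at 64.3 and 58.2 TPM with JG342. It lay higher in both treated libraries without passing (0.24 ± 0.11, limma adjusted p 0.159). EIF6, which keeps the large subunit from joining early, had a log2 fold change of -0.18 ± 0.12 (limma adjusted p 0.331, and 0.0389 with the block and median scaling).

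Elongation factor genes held the largest summed level of the 7 factor groups. Of the 6 fitted, 5 had positive log2 fold changes (EEF1G turned to -0.06, or -0.057, after median scaling), beside 6446 of 12042 fitted genes. In this group 1 gene was called higher (16.7%, against 10.8% of all fitted genes). EEF2 (NM_001961), the translocase, was at 2056 and 2177 TPM with DMSO and at 2714 and 2726 TPM with JG342. The groups did not overlap, and EEF2 rose by 0.36 ± 0.09 (limma adjusted p 0.0266; 0.0882 after median scaling). EEF1A1, which delivers aminoacyl-tRNA, was at 5432 and 5369 TPM with DMSO and at 6846 and 6614 TPM with JG342. It was higher in both treated libraries and just missed the threshold (0.32 ± 0.10, limma adjusted p 0.0516; 9.64e-05 with the replicate block, 0.174 after median scaling). With the block and median scaling together EEF1A1 did not pass (limma adjusted p 0.223). EEF1A1 has 7 pseudogene copies of at least 95% identity, so reads may be shared among them.

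The exchange factor subunits that recharge eEF1A differed less. EEF1B2 was at 1133 and 1110 TPM with DMSO and at 1331 and 1280 TPM with JG342 (0.22 ± 0.09, limma adjusted p 0.117; 0.0118 with the block). EEF1D had a log2 fold change of 0.16 ± 0.09 and EEF1G of 0.01 ± 0.09, and neither passed (limma adjusted p 0.271 and 0.943). EEF1AKNMT, a methyltransferase of eEF1A that the symbol rule keeps, was at -0.21 ± 0.12 (limma adjusted p 0.264).

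Among genes with a listed start, those with a TOP-like start lay mostly above 0 and the others mostly below. The split leaves out 10 genes with no listed start. Of these, EEF1D, EIF2S2, EIF3CL, EIF3E, EIF3G, EIF3H and EIF3L were positive, with EIF2S2 and EIF3H called higher. EEF1AKNMT and EIF3A were negative, and EEF1A2 was not fitted. Of the 55 genes, 45 had a start in the RefSeq table, and 13 of these (28.9%) had at least 1 listed start with a C followed by 4 or more pyrimidines, against 5.14% of all 27305 genes in that table. Among fitted genes with a listed start, the share was 29.5% of the factor genes and 7.35% of the others. All 13 were fitted, and 11 had a positive log2 fold change, with a median of 0.16. They were EEF1A1, EEF1B2, EEF2, EIF2A, EIF2D, EIF2S3, EIF2S3B, EIF3D, EIF3F, EIF3K, EIF3M, EIF4A2 and EIF4B; EIF2S3B and EIF3M were below 0. Among the 31 fitted genes without such a start, 10 were positive and 21 negative, with a median of -0.11. After median scaling the medians were 0.09 and -0.18, with 9 of 13 and 8 of 31 positive. By calls, 2 of the 13 were higher (EEF2 and EIF3F) and none lower, while of the 31, 3 were higher and 5 lower. Of the other fitted genes with such a start, 97 of 704 were called higher, and over all fitted genes 10.8% were higher and 7.62% lower. Neither EEF2 nor EIF3F passed after median scaling (limma adjusted p 0.0882 and 0.123).

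**Figure D4:**
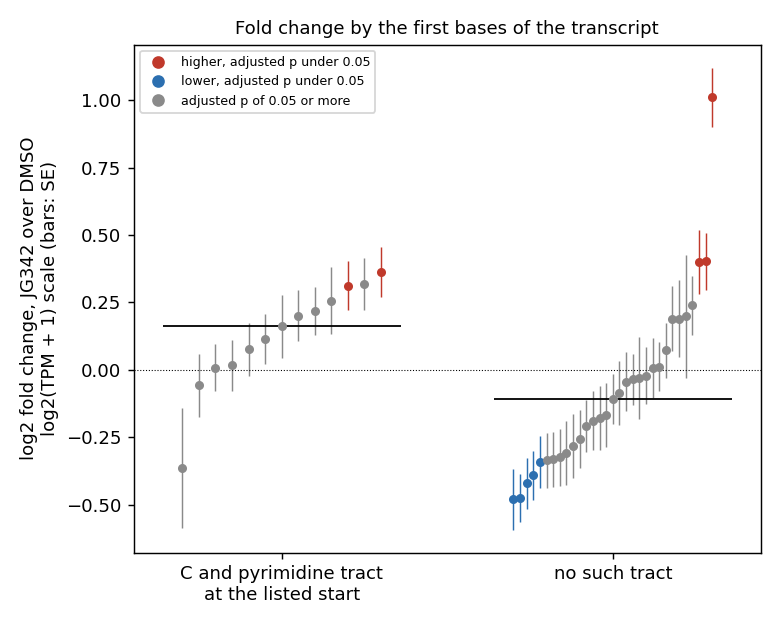
Log2 fold change of JG342 over DMSO on the log2(TPM + 1) scale, with SE bars, for the 44 fitted factor genes with a listed start, split by whether a listed start has a C and at least 4 pyrimidines after it; black lines are medians, points within a class are ordered by value. The 13 genes with the tract have a median of 0.16 and the 31 without it -0.11, with EIF1 at 1.01 as the highest of the latter.

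This division is a description over genes and carries no test. Among the other fitted genes with a listed start, the 704 with such a tract had a median of 0.07 and the 8869 without it 0.02. Of these, 414 of the 704 and 4682 of the 8869 were positive. Among 10 factor genes named from general knowledge as TOP mRNAs (EEF1A1, EEF1B2, EEF1D, EEF1G, EEF2, EIF3A, EIF3E, EIF3F, EIF3H and EIF4B), 9 were positive, with a median of 0.24. Over all fitted genes 6446 of 12042 were positive. EIF3A was the exception among the 10, and EEF1G and EIF4B also lay below 0 after median scaling. EEF1G was counted above among the genes without such a start. The 82 fitted genes of cytosolic ribosomal proteins, whose mRNAs also carry the motif, had a median of 0.17, with 7 called higher, or 8.54% against 10.8% of all fitted genes. That count was 41 with the replicate block (background 19.2%) and 0 after median scaling (background 8.02%), where the median was 0.11. The 20 cytosolic aminoacyl-tRNA synthetase genes had a median of 0.60, with 13 called higher (12 after median scaling), so the factor genes as a group lay nearer to all genes than to either list.

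Promoter motifs were also counted. The E-box CACGTG, which MYC can bind and which reads the same on both strands, was in the window from 250 bases before to 50 bases after a start in 10 of the 45 genes (22.2%), against 8.77% of all genes in the RefSeq table. Among fitted genes with a listed start, the share was 22.7% of the factor genes and 12.8% of the others. The 10 were EIF1B, EIF2B3, EIF3F, EIF3K, EIF4A3, EIF4B, EIF4E, EIF4G1, EIF4H and EIF5A2. Of these 10, 4 were positive, with a median of -0.10 (-0.099), and 2 were called higher and 2 lower. Of the 34 fitted genes without the E-box, 17 were positive, with a median of -0.01 (-0.0078), and 3 were called higher and 3 lower. Of the other fitted genes with the E-box, 628 of 1221 were positive and 231 were called, 114 of them higher. After median scaling 2 of 10 and 15 of 34 were positive, with medians of -0.16 and -0.08 (-0.075). The ATF4-type site TGATGNAAT, on either strand, was in none of the 45 windows (1.22% of all genes); this says only that those letters were not there.

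Translation control and partner genes outside the set were examined as a list of 40, not all of which act on these factors. Of the 40, 6 were higher and 3 lower (15% and 7.5%, near the background of 10.8% and 7.62%). After median scaling 6 were higher and 6 lower (background 8.02% and 9.97%). With the replicate block 8 were higher and 7 lower (background 19.2% and 15.7%). PPP1R15A, which directs the phosphatase that restores eIF2, was at 47.6 and 61.5 TPM with DMSO and at 197 and 258 TPM with JG342, and it rose by 2.04 ± 0.16 (limma adjusted p 0.000137). EIF4EBP1, which sequesters eIF4E, was at 136 and 168 TPM with DMSO and at 329 and 372 TPM with JG342, and it rose by 1.201 ± 0.12 (limma adjusted p 0.000512). The ratio of EIF4EBP1 to EIF4E was 4.67 and 5.19 with DMSO and 12.8 and 15.7 with JG342. EIF2AK4, the eIF2 kinase GCN2 that senses uncharged tRNA, was at 19.2 and 20.6 TPM with DMSO and at 46.0 and 39.0 TPM with JG342, and it rose by 1.05 ± 0.13 (limma adjusted p 0.00131). The other eIF2 kinases, EIF2AK1, EIF2AK2 and EIF2AK3, had log2 fold changes of 0.14, -0.28 and 0.13 and did not pass (limma adjusted p 0.365, 0.287 and 0.598).

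PDCD4, an inhibitor of the eIF4A helicase, rose by 0.66 ± 0.10 (limma adjusted p 0.00425), and IMPACT, which restrains GCN2, by 0.83 ± 0.15 (limma adjusted p 0.00767). PABPC4, a poly(A)-binding protein, rose by 0.55 ± 0.09 (limma adjusted p 0.00525). DOHH, which completes the hypusine of eIF5A, fell by 0.40, with an SE of 0.11 (limma adjusted p 0.0400), and DPH2, of the diphthamide pathway that modifies eEF2, by 0.59, with an SE of 0.12 (limma adjusted p 0.0108). EEF2K, the kinase that inactivates eEF2, was at 23.5 and 26.6 TPM with DMSO and at 18.9 and 17.2 TPM with JG342, and it fell by 0.45, with an SE of 0.13 (limma adjusted p 0.0405). EIF4EBP2 and EIF4EBP3 did not pass (limma adjusted p 0.382 and 0.559). With 1 library left out, IMPACT missed without DMSO replicate 1 (0.0515), PABPC4 and DPH2 without DMSO replicate 2 (0.0639 and 0.0949), and DOHH and EEF2K without any 1 of the DMSO or JG342 libraries (0.0547 to 0.247).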

How the data were processed

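RNA sequencing of MM.1S cells gave 4 libraries, 2 per treatment. The authors deposited 1 table of 16057 genes with TPM values, normalized for transcript length and library total. The unit was read from the values, since the file header does not name it. Each library sums to between 994463 and 994718. HISAT2 2.0.4, Bowtie2 2.2.5 and RSEM 1.2.12 are named, per the submitters' processing notes, without roles. Genome build, annotation, filters and strandedness are not given in the sources used here. TPM records no depth, so no counting interval is given; between 1118 and 1418 genes per library were listed at 0.

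The 12042 genes averaging 1 TPM or more were fitted as log2(TPM + 1) with limma 3.58.1 in R 4.3.3 (lmFit, eBayes with a mean-variance trend), treatment as the only term, Benjamini-Hochberg adjustment over all of them, two-sided. Fold changes on this scale understate those of low genes. With 2 libraries per group, each gene has 2 residual and 6.89 prior degrees of freedom. The fit was tested on simulated data. The blocked fit adds the replicate number as a term. Same-numbered libraries carry a common prefix in their descriptions, and their deviations from the group means correlated at r = 0.27 (rho 0.30) across genes. That fit has 1 residual degree of freedom and an infinite prior, so its p-values rest on the mean-variance trend alone.

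The members, lists and alternatives were chosen with earlier results of these data known. Named genes are all factor genes, with full statistics for those past the threshold, the smallest p of a group without a call and listed paralogs; of the control list, at most 8 genes by p plus the eIF2 kinases, eIF4E-binding proteins and EEF2K. Near-identical copies were found by aligning GENCODE release 29 transcripts with BLAST 2.17.0 (at least 95% identity over 20% of the transcript). Besides EEF1A1, EIF2S2, EIF3F, EIF4A1 and EIF4E, pseudogene copies were found for EEF1B2, EEF1D, EEF1G, EIF3L, EIF4B, EIF4H and EIF5A. Overlapping genes on the other strand, such as REV1 with EIF5B, GPS2 with EIF5A and UTP23 with EIF3H, cannot be separated without strand.

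Alternatives were a pseudocount of 0.1, no filter, a mean of at least 5 TPM, median scaling, quantile normalization, no mean-variance trend, the block alone or with median scaling, copies summed, and each library left out in turn, where the lone library is assumed to vary like the other group.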

Additional observations from a re-analysis of the deposited data

How the results depend on the processing

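EIF1 kept its direction and call in all 13 alternatives, and none of the 12 called factor genes changed sign in any. Where 1 library was left out, the lack of overlap between groups fixed that sign. The fits with no filter, a mean of at least 5 TPM, no trend or the block alone leave the log2 fold changes as they were. No sign could change there. Block with median scaling repeats the log2 fold changes of median scaling alone. The higher and lower calls were 1 and 8 after median scaling, 13 and 11 with the replicate block, 1 and 2 with no filter on low values, and 1 and 1 without the mean-variance trend; combining block and median scaling gave 15 lower calls. Across all genes the 2221 calls became 828 of 16057 with no filter and 1508 of 12042 without the mean-variance trend. Higher genes made up 64.4% and 65.1% of these calls. The calls were 4207 with the replicate block and 3985 with the block and median scaling. Calls shared with the 12 were 6 after median scaling, 9 after quantile normalization, 3 with no filter and 2 without the trend. With 1 library left out, higher calls were 1 to 3, lower calls 0 to 4 and calls over all genes 773 to 1905, from 1 residual degree of freedom.

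The median of the factor genes was -0.061 after median scaling, with or without the replicate block, and -0.042 to 0.069 with 1 library left out. With median scaling, with or without the block, the group medians were 0.12 for EEF, 0.0054 for EIF1, -0.089 for EIF2B and 0.043 for EIF3. They were 0.22 for EEF and 0.17 for EIF3 after quantile normalization, 0.16 for EEF and -0.11 for EIF1 with no filter, and 0.076 for EIF3 with copies summed. With 1 library left out the medians ran from 0.15 to 0.22 for EEF, 0.051 to 0.17 for EIF2, -0.089 to -0.031 for EIF2B, -0.0023 to 0.11 for EIF3, and -0.20 to -0.0079 for EIF5 and EIF6. The cause of these shifts was not tested.

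Some uncalled genes near 0 changed sign. After median scaling, with or without the block, EEF1G was -0.057, EIF2B2 -0.061, EIF3K -0.062 and EIF4B -0.053. After quantile normalization EEF1G was -0.044, EIF2B2 -0.038 and EIF3I 0.020. With 1 library left out the ranges crossed 0 for EEF1G (-0.015 to 0.039), EIF2B1 (-0.089 to 0.046), EIF2B2 (-0.049 to 0.061), EIF3C (-0.043 to 0.42), EIF3CL (-0.072 to 1.07), EIF3D (-0.0057 to 0.16), EIF3I (-0.10 to 0.029), EIF3J (-0.18 to 0.089), EIF3K (-0.028 to 0.042), EIF3M (-0.19 to 0.069), EIF4B (-0.059 to 0.091), EIF4H (-0.34 to 0.0027), EIF5A2 (-0.11 to 0.050) and EIF5AL1 (-0.065 to 0.46).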
